A study of Mus musculus with 12 samples.

Results

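The accessible regions at 10 genes for growth factor and cytokine receptors of myeloid cells were examined by ATAC-seq, which cuts open chromatin with the Tn5 transposase and finds peaks where cuts are dense. A region was an interval formed by merging overlapping peaks of all lists, and it was taken when its overlapping or nearest protein-coding gene within 50000 bases was Flt3, Kit, Csf1r, Csf3r, Csf2ra, Csf2rb, Csf2rb2, Il3ra, Il6ra or Il6st. This gave 19 of 16028 regions, of which 92.4% had a gene within that distance, and the 19 lay at 8 of the 10 genes. Csf2rb and Csf2rb2 had 0 regions. Of all protein-coding genes, 47.9% had 1 or more.

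The cells were cultured mouse ER-Hoxa9-Lys-GFP cells of strain C57BL/6, myeloid progenitors whose differentiation is blocked by a Hoxa9 protein fused to the estrogen receptor and which carry a green fluorescent reporter of lysozyme. The fusion needs estradiol (E2). All 6 groups grew in medium with serum and medium conditioned for SCF, the ligand of Kit, and each had 2 libraries and 1 deposited peak list. The first group stayed in E2 and the last went 120 h without it. The other 4 groups went 24, 40, 56 or 72 h without E2 before E2 was restored for 96, 80, 64 or 48 h, respectively. Effects of the time without E2 and of the time since its return cannot be told apart. Per the labels, nuclei were divided between 2 transposition reactions, and nothing there says that the libraries of a group came from separate cultures or whether the line is 1 clone. The lists held 13165 peaks in continuous E2 and 7987 at 120 h, with 11465, 9940, 8989 and 9581 in the groups given E2 again. They gave positions only, so the read depth was unknown, no value had a replicate error and no test between groups was possible. A region is called lost when it was in the list of continuous E2 and not in that of 120 h, gained in the opposite case, and kept when it was in both. Of fixed marker genes, those for progenitors had a region in 5 of 5 cases in continuous E2 and 3 of 5 at 120 h, those for neutrophils in 2 of 8 and 4 of 8, and those for monocytes in 1 of 5 and 4 of 5. After 24, 40, 56 and 72 h the progenitor counts were 5, 4, 3 and 3. The neutrophil counts were 1, 0, 0 and 0 there, and the monocyte counts 1, 1, 0 and 3. In continuous E2, 1 of 4 erythroid, 2 of 5 lymphoid and 1 of 4 mast cell markers also had a region. Of all regions, 82.1% were called in continuous E2 and 49.7% at 120 h, which are shares of regions and not of genes. A region in 1 or more of the 6 lists was found for 47.9% of all protein-coding genes. The marker counts were not tested.

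Receptors of this group tell myeloid cells to survive, divide and mature. Kit, Flt3 and Csf1r are receptor tyrosine kinases that bind SCF, FLT3 ligand and M-CSF. Csf3r, the G-CSF receptor, acts as pairs of the same chain, while the ligand-binding chains Csf2ra, Il3ra and Il6ra need a partner: Csf2rb, shared by GM-CSF, IL-3 and IL-5, its mouse relative Csf2rb2 for IL-3, and Il6st (gp130) for IL-6. In blood formation Flt3 and Kit are known from immature progenitors, Csf1r from monocytes and macrophages and Csf3r from neutrophils.

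Promoters of 4 genes are printed because their calls differed between the lists in different ways. The window of Flt3 lay under a peak only up to 40 h of withdrawal, that of Kit up to 72 h, that of Csf3r only at 72 and 120 h, and that of Il6ra in 4 lists but not in continuous E2. Each window runs from 250 bases before to 50 bases after the start annotated by RefSeq (GRCm38.p6) and reads along the gene. They lie at chr5:147400440-147400739 on the minus strand (Flt3), chr5:75574737-75575036 on the plus strand (Kit), chr4:126024409-126024708 on the plus strand (Csf3r) and chr3:89913147-89913446 on the minus strand (Il6ra). Capitals mark letters that match a searched motif.
Flt3: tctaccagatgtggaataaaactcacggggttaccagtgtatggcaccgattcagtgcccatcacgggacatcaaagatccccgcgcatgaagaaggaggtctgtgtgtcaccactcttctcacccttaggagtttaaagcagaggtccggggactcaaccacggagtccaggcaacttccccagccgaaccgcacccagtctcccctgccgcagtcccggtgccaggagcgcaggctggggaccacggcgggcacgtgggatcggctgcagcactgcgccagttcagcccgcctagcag
Kit: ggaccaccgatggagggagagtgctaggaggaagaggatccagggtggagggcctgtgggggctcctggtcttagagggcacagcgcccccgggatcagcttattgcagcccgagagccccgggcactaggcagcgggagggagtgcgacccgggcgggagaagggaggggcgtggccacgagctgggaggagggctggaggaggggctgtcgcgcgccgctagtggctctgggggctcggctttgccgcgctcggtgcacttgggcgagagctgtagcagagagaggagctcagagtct
Csf3r: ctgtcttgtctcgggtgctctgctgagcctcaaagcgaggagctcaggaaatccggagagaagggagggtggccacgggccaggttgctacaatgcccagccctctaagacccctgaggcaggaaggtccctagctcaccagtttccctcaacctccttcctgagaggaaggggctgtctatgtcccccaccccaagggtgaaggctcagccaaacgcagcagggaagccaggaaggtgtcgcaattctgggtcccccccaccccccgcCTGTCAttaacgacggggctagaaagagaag
Il6ra: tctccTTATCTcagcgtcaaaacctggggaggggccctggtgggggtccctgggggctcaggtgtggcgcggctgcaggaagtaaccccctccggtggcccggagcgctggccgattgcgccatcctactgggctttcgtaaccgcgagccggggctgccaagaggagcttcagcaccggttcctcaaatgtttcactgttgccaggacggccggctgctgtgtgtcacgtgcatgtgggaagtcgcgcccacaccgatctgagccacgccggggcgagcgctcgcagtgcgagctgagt

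The letters were searched on both strands of 21263 promoter windows of 17492 protein-coding genes, among them 8 of the 10 receptor genes. For sites of HOX proteins with their partner PBX they were TGATTTAT, found in 0.814% of windows, and TGATTGAT, found in 0.616%. For C/EBP factors, which drive granulocyte genes, they were TTGCGCAA, found in 0.221% of windows, and the related site TTGCAAT, found in 1.98%. A site of C/EBP joined with ATF was written TTGCGTCA, with 0.644% of windows. The myeloid factor PU.1 was searched as GAGGAAGT, with 3.13%. The factor family RUNX was searched by the shorter site TGTGGT, with 15% of windows. The homeobox cofactor MEIS was searched by the similarly short site TGACAG, with 18.7%. The signal-responsive factor AP-1 was searched as TGAGTCA, whose reverse complement is the other usual spelling of that site, with 4.66%. The erythroid and mast cell factor family GATA was searched as AGATAA, with 9.65%. Csf3r had the MEIS letters, on the reverse strand from base 20 after its start. Il6ra had the GATA letters, on the reverse strand from position -245 relative to its start. Csf2rb2, whose window lay under no peak in any list, had the PU.1 letters. The windows of Flt3, Kit, Csf2ra, Il3ra and Il6st held none of these letters. A match is a match of letters and no measure of binding.

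The first question was which receptor gene regions were called in only 1 of the 2 end points. Regions of the tyrosine kinase receptors were mostly lost, those of Csf3r and Il6ra were gained, and those of Csf2ra and Il3ra were kept. Of the 19 regions, 7 were lost, at Flt3, Kit, Csf1r and Il6st (36.8%, 95% Wilson interval 19.1 to 59.0), and 41.6% of all regions were lost. The 5 gained regions, at Flt3, Csf3r and Il6ra (26.3%, 11.8 to 48.8), stand beside 9.15% of all regions. The 7 kept regions, at Csf2ra, Il3ra and Il6st (36.8%, 19.1 to 59.0), stand beside 40.6%. No region was in neither end point, against 8.71% overall. The genes were chosen with earlier results of these data known and regions of the same gene are not independent, so these shares describe the 19 regions and were not tested. Of the kept regions 4 belong to Csf2ra, and without chromosomes 18 and 19, whose rows were repeated in the files, 3 kept regions remained.

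**Figure D1:**
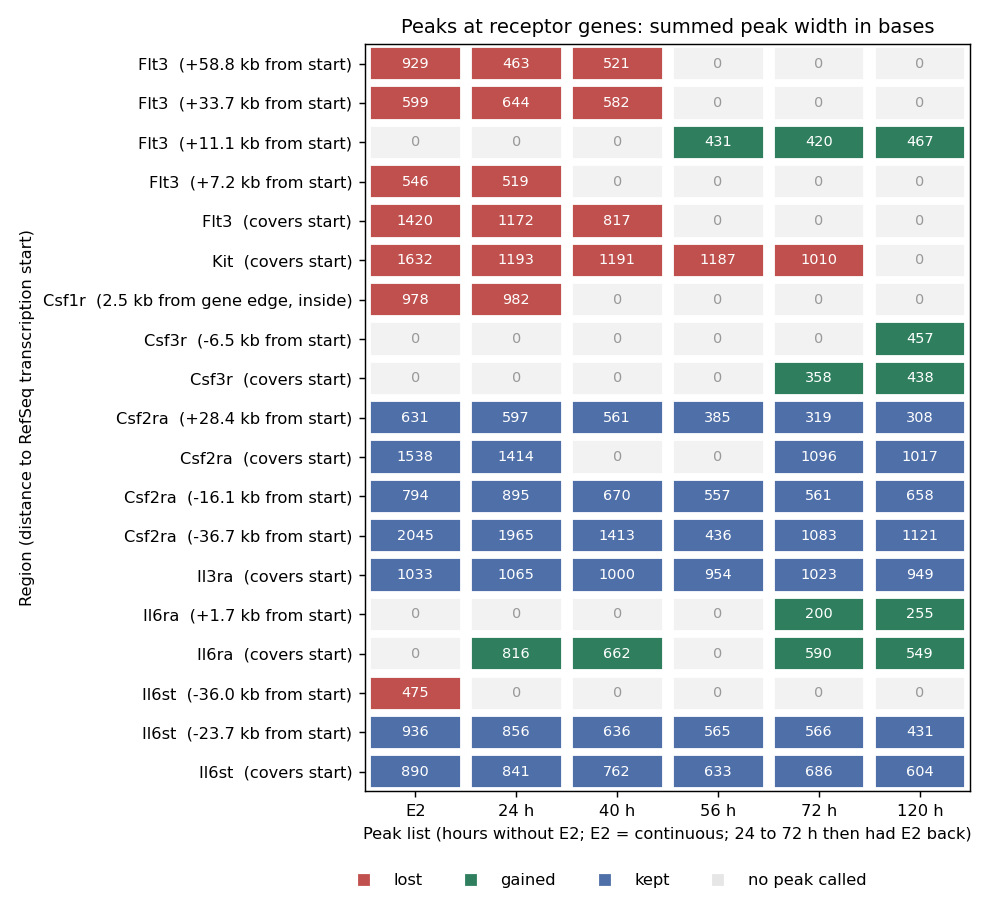
Peaks in the 19 regions of the receptor genes (rows, with the distance from the RefSeq transcription start, or for Csf1r from the nearer gene edge) in the 6 lists (columns). Numbers are summed peak widths in bases, 0 means that no peak was called, and colour gives the class by the end points: 7 regions were lost, 5 gained and 7 kept.

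Flt3 had the most regions, 5, all overlapping the gene, a number that 1.26% of genes with a region reach or exceed. Its 4 lost regions included that over the transcription start (chr5:147399775-147401194, GRCm38), where the peak was 1420 bases wide in continuous E2, 1172 after 24 h and 817 after 40 h of withdrawal and was not called after 56, 72 or 120 h. The region 33739 bases inside the gene (chr5:147366107-147366750) had the same calls, with widths of 599, 644 and 582 bases. That at 58818 bases (chr5:147340743-147341671) also had them, with widths of 929, 463 and 521 bases. All 3 were therefore in the lists up to 40 h and in none from 56 h on, a set of calls shared by 5.53% of all regions. The fourth, 7232 bases inside the gene (chr5:147392570-147393257), was 546 bases wide in continuous E2 and 519 after 24 h and was absent from 40 h on. With each list cut to its 7987 widest peaks, the promoter region alone kept its calls among these 4. The region at 58818 bases was then missing after 24 h, that at 33739 bases was missing in continuous E2 and so no longer lost, and the fourth was in no list, which left 2 lost regions at Flt3.

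The gained region of Flt3 lay between lost ones, 11118 bases from the start (chr5:147388885-147389371). It was absent in continuous E2 and after 24 and 40 h, and was 431, 420 and 467 bases wide after 56, 72 and 120 h. No list thus held both this region and the promoter region of Flt3. The former was in the 3 lists without the latter and in none of the 3 with it. With lists of equal length, the gained region had the same calls. Without peaks under the lower quartile of width of each list, it was called at 120 h alone. Its calls after 56 and 72 h thus rest on narrow peaks, while the promoter region kept its calls under each of these settings. Only 0.805% of all regions, 129, had the calls of this gained region. A further region 17772 bases upstream of Flt3 but nearer to Pan3 was also called up to 40 h alone, while another near Pan3, 29307 bases upstream, was in all 6 lists. Past the end of Flt3, a region 6671 bases away and nearer to Urad was called in continuous E2 and after 24 h alone.

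Kit had 1 region, over its start (chr5:75574676-75576307). The peak measured 1632 bases in continuous E2. It measured 1193, 1191, 1187 and 1010 bases in the groups of 24, 40, 56 and 72 h, where E2 had been returned, and was absent at 120 h. It was the widest lost peak of the receptor genes. Kit and Flt3 thus differed in the lists of 56 and 72 h, in which the Kit promoter region was called and the Flt3 promoter region was not. In all, 6.59% of regions were missing at 120 h alone, and 61.3% of these lay within 1000 bases of the start or end of their gene. The list of 120 h was also the shortest, and with each list cut to its 7987 widest peaks the Kit region had the same calls. Outside the assignment limit, a region 73524 bases past the end of Kit (chr5:75730246-75731468) had no protein-coding gene within 50000 bases and had the same calls as the Kit promoter region. The farthest assigned regions lay 36644 bases from Csf2ra and 35992 bases from Il6st.

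Csf1r had 1 region, 2493 bases inside the gene (chr18:61108065-61109093). It was 978 bases wide in continuous E2 and 982 bases after 24 h, and absent in the other 4 lists, although 1 interval over 10000 bases, left out here, spanned it at 40 h and 1 at 56 h. These widths come from overlapping rows that were merged and are not comparable in detail with those on other chromosomes. The region 13405 bases outside Csf1r and nearer to Pdgfrb, the neighbouring gene for a platelet-derived growth factor receptor, was called in the same 2 lists. Another region, 48027 bases outside Csf1r and within Pdgfrb, was in continuous E2 alone. By contrast, a region 45200 bases outside Csf1r, at the boundary of Hmgxb3, was gained and was missing in continuous E2 alone.

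Csf3r had 2 regions and both were gained. The region over the RefSeq start (chr4:126024507-126024944) was absent in continuous E2 and after 24, 40 and 56 h, was 358 bases wide after 72 h and 438 bases wide at 120 h, and covered 157 and 202 of the 300 promoter bases in these lists. With each list cut to its 7987 widest peaks it was called at 120 h alone. Without peaks under the lower quartile of width of each list it was in no list. The other, 6513 bases upstream of that start (chr4:126017690-126018146), was called at 120 h alone, with 457 bases. Both overlapped Gm32908, a long noncoding RNA gene, so the region over the start cannot be given to Csf3r alone. The neighbours of Csf3r had other calls. The region 1838 bases past the end of Csf3r, at the boundary of the mitochondrial ribosomal protein gene Mrps15, and another nearest to Oscp1 were missing at 120 h alone.

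**Figure D2:**
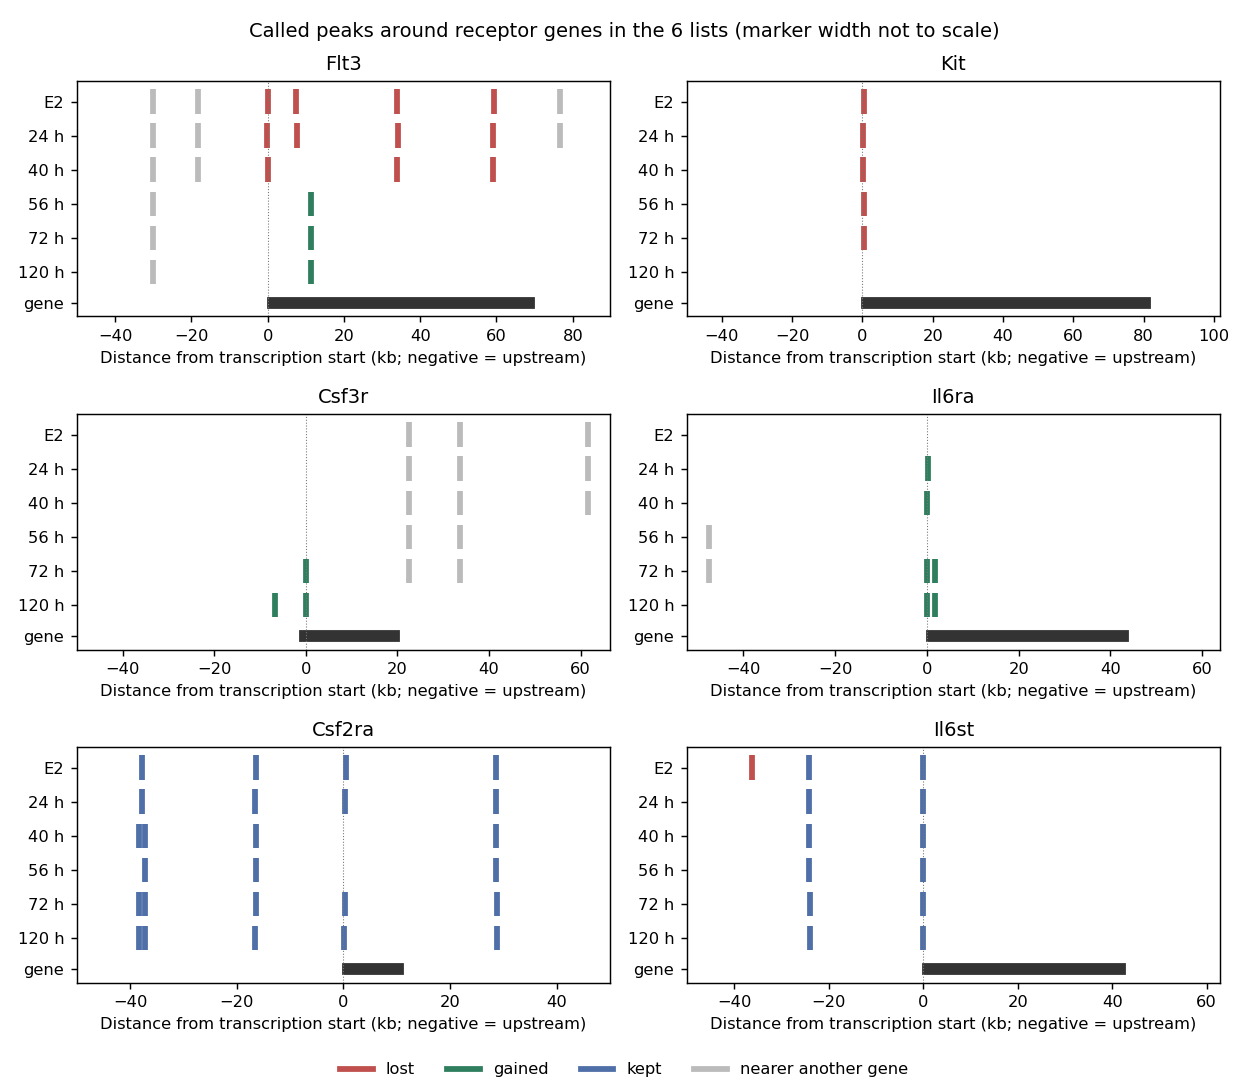
Called peaks by distance from the transcription start in kb (horizontal) and by list (vertical) around 6 receptor genes, with the gene as a black bar, regions of the gene coloured by class and regions within 50 kb that lie nearer to another gene in grey. At Flt3 the gained region appears at 56 h, the earliest list without the promoter region. At Csf3r peaks of the gene appear only at 72 and 120 h. Without peaks under the lower quartile of width of each list, the gained Flt3 region was called at 120 h alone.

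Il6ra, the binding chain for IL-6, had 2 gained regions. That over its start (chr3:89912659-89913512) was absent in continuous E2, 816 and 662 bases wide after 24 and 40 h, absent after 56 h, and 590 and 549 bases wide after 72 and 120 h. It was the only one of the 12 lost or gained receptor regions that did not switch once along the order of withdrawal: 11 of 12 did (91.7%, Wilson interval 64.6 to 98.5), beside 84.7% of all lost or gained regions. The other region, 1676 bases inside the gene (chr3:89911266-89911520), was called after 72 h with 200 bases and at 120 h with 255 bases, the narrowest peaks at any receptor gene. Il6st, the signalling partner of Il6ra, had a region over its start in all 6 lists (chr13:112463657-112464546), with widths of 890, 841, 762, 633, 686 and 604 bases in the order of withdrawal. A region 23695 bases upstream (chr13:112439389-112440375) was also in all 6, and narrowed from 936 to 431 bases. With 50% reciprocal overlap this upstream region did not count as called at 120 h and so was lost. The same held without peaks under the lower quartile of width of each list. The last, 35992 bases upstream (chr13:112427604-112428078), was in continuous E2 alone, with 475 bases. The long noncoding RNA gene Gm33905 was nearer to both upstream regions than Il6st. The promoters of this receptor pair therefore differed in continuous E2 and at 56 h, where that of Il6st was called and that of Il6ra was not.

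Csf2ra, the binding chain for GM-CSF, had 4 regions, all kept, whose widths also come from merged rows. With 50% reciprocal overlap, those past the gene end and 36687 bases upstream were lost instead. The region over the start of Csf2ra (chr19:61227171-61228736) was 1538 and 1414 bases wide in continuous E2 and after 24 h, absent after 40 and 56 h, and 1096 and 1017 bases wide after 72 and 120 h. The absence rests on leaving out intervals over 10000 bases, of which 2 at 40 h and 1 at 56 h spanned this region, as did 12, 12, 1 and 1 in the other lists. This set of calls was rare, at 55 regions or 0.343% of all, of which 3 lay on chromosome 19. The 56 h list that lacked both this promoter and that of Il6ra held 8989 peaks, against 9581 at 72 h and 7987 at 120 h. With each list cut to its 7987 widest peaks, both promoters kept the calls they had in the other lists. Such a cut adds no peaks, so it says nothing about the gaps. The part of read depth was not tested. The other 3 regions of Csf2ra lay outside the gene and were in all 6 lists. One, 17124 bases past its end (chr19:61199396-61200067), narrowed from 631 bases in continuous E2 to 308 at 120 h. Another, 16056 bases upstream of the start (chr19:61244474-61245368), was 557 to 895 bases wide. The last, 36687 bases upstream (chr19:61265105-61267149), was the widest of all receptor regions, with a summed peak width of 2045 bases in continuous E2, 436 at 56 h and 1121 at 120 h. It lay beyond the last protein-coding gene of chromosome 19, which was Csf2ra itself, and a pseudogene (Gm6020 or Gm18999) was nearer to each of these 3 regions than Csf2ra.

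Il3ra, the binding chain for IL-3, had 1 region, over its start (chr14:14345525-14346609). It was in all 6 lists, with widths of 1033, 1065, 1000, 954, 1023 and 949 bases, and changed least in width among the kept regions. No region was assigned to Csf2rb or Csf2rb2, the partner chains of Il3ra and Csf2ra, while 47.9% of all protein-coding genes had 1 or more. The nearest region to Csf2rb lay 17986 bases away, nearer to Tex33 (chr15:78368987-78369538), and was called after 40, 56 and 72 h and at neither end point. The nearest to Csf2rb2, 24020 bases away in Ncf4, a subunit gene of the NADPH oxidase (chr15:78257510-78258487), was called at 120 h alone. The promoters of the 2 binding chains were thus called together in 4 lists, and that of Il3ra alone after 40 and 56 h.

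Among the 8 genes of the promoter table, 5 had a peak over the promoter window in continuous E2, 6, 5, 3 and 6 after 24, 40, 56 and 72 h, and 5 at 120 h. Over all genes with a window the shares were 37.6%, 36.9%, 35.6%, 34.7%, 35.9% and 30.3%. The 5 called at both end points were not the same genes: Flt3 and Kit were in the first set alone, Csf3r and Il6ra in the last alone, and Csf2ra, Il3ra and Il6st in both. Of all 19 regions, 6 lay within 1000 bases of the start or end of their gene (31.6%, Wilson interval 15.4 to 54.0), beside 49.5% of all regions. These boundaries are the outer ends of the gene. The region over the RefSeq start of Csf3r was not among the 6, because the nearest outer end of Csf3r was 1066 bases away. Inside their gene lay 13 of the 19, beside 81.2% of all assigned regions.

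The next question was how the regions of the receptor genes were called once E2 was back. The lists of 24 and 40 h held 6 and 4 of the 7 lost regions, and those of 56 and 72 h held 1 each, that of Kit. Over all lost regions the shares were 63.2%, 42.5%, 27.0% and 26.9%. The lists of 24, 40 and 56 h each held 1 of the 5 gained regions and that of 72 h held 4, beside 30.5%, 39.7%, 47.6% and 64.1% of all gained regions. Those of 24 and 40 h were the Il6ra promoter region, and that of 56 h was the Flt3 region.

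Counted together, 14 of the 19 regions were in the list of continuous E2, where 82.1% of all regions were called. After 24, 40, 56 and 72 h the counts were 14, 11, 8 and 12, beside 71.4%, 61.9%, 55.9% and 59.5%, and at 120 h it was 12, beside 49.7%. The Wilson interval of each of these 6 shares included the share over all regions. These intervals treat regions of the same gene as independent, so their position is no test of a difference. Of the 14 regions of continuous E2, 7 were also called at 120 h (50%, 26.8 to 73.2), beside 49.4% of all regions of that list. In all 6 lists were 6 of the 19 (31.6%), beside 32.8% overall.

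**Figure D3:**
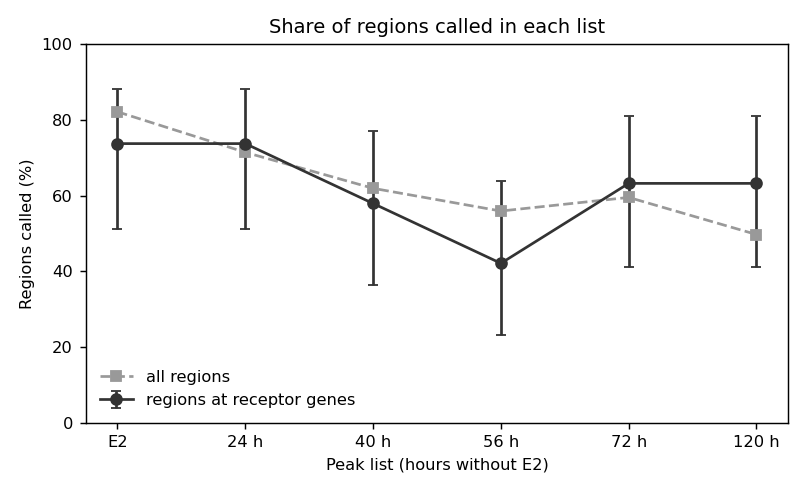
Share of the 19 receptor gene regions called in each list (circles, with 95% Wilson intervals that cover counting error over regions only) and share of all 16028 regions (squares), in percent. The receptor share is lowest at 56 h, with 42.1%, and each interval includes the share over all regions.

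Peak width, the only value a peak had besides its place, was compared within kept regions. The 7 kept receptor regions were all narrower at 120 h than in continuous E2, as were 96.6% of all kept regions. The ratio of the width at 120 h to that in continuous E2 was 0.919 at Il3ra, above that of 91.5% of kept regions, and 0.679 at the Il6st promoter, near the median of 0.665 (quartiles 0.559 and 0.782). It was 0.46 at the upstream region of Il6st. At Csf2ra it was 0.661 at the promoter, 0.488 past the gene end, and 0.829 and 0.548 at the upstream regions. In regions of all 6 lists the median width was 934 bases in continuous E2, 639 at 56 h and 612 at 120 h, so the narrowing at the receptor genes was seen beside a narrowing of peaks in general. Lost receptor regions had a median width of 929 bases in continuous E2, beside 720 for all lost regions, and the gained ones 457 bases at 120 h, beside 444.

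**Figure D4:**
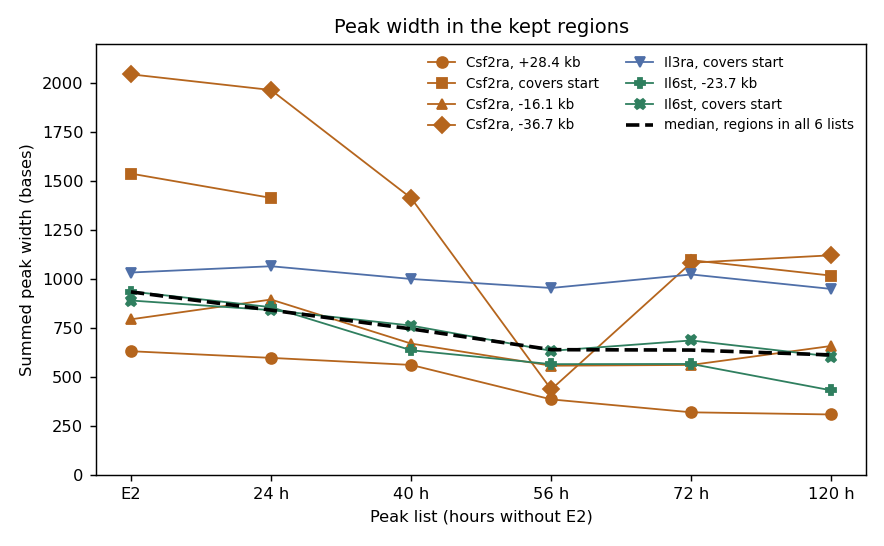
Summed peak width in bases in the 7 kept receptor regions (coloured lines, a gap where no peak was called) by list, with the median over 5265 regions called in all 6 lists (dashed). Il3ra stays between 949 and 1065 bases, and all 7 lines end lower than they start.

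Genes upstream and downstream of these receptors were counted from 4 lists, beside 41.6% of regions lost, 9.15% gained and 40.6% kept overall. The number of genes with a region in each list stands beside 47.9% of all protein-coding genes. Of 13 ligand genes, 5 had a region, and their 8 regions were 3 lost, 2 gained, 0 kept and 3 in neither end point (37.5% lost). Csf1, which encodes the ligand of Csf1r, had 2 lost regions and 1 gained region, and Osm, an IL-6 family ligand, had 1 gained region. Il6 had 1 region, called in continuous E2 alone, and Il5 had 1, called after 24 h alone. Of 23 other cytokine and growth factor receptor genes, 14 had a region, with 24 lost, 2 gained and 8 kept of 36 (66.7% lost). Flt1, a receptor for vascular endothelial growth factor, had 4 lost regions and both gained ones, and Pdgfrb had 3 lost regions. Ifnar1, a chain of the interferon receptor, had 3 kept regions and 1 lost. Tnfrsf1b, a tumour necrosis factor receptor, had 2 lost and 1 kept.

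Of 20 kinases and signal proteins next to the receptors, 17 had a region, with 13 lost, 3 gained and 17 kept of 36 (36.1% lost). Lyn, a SRC family kinase, had 2 lost regions, and Jak1, a kinase bound to gp130, had 2 kept and 1 lost. The adaptor gene Gab2 and the kinase gene Syk each had 2 lost and 1 kept. Of 14 inhibitor genes in the gene table, 13 had a region, with 16 lost, 4 gained and 9 kept of 30 (53.3% lost). Spred2, an inhibitor of the RAS pathway, had 4 lost regions, and Dok2, an adaptor that dampens kinase signals, had 2 lost and 2 kept. Ptpn6, the phosphatase SHP-1, had 2 gained and 2 kept regions and 0 lost, and Inpp5d, the lipid phosphatase SHIP-1, had 2 lost and 1 gained. The counts of these lists were not tested, and their genes were chosen with results of these data known.

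For the 3 receptor genes with 3 or more regions, the genes with the most similar numbers of called regions over the 6 lists were sought among 10481 genes, by the summed absolute difference. Flt3, with 4, 4, 3, 1, 1 and 1 called regions in the order of withdrawal, had 8 genes at the smallest difference of 1, among them Chst11, Katnal1 and Dab2ip. Csf2ra had 4 genes at a difference of 2, among them Ier5, Ifnar1 and Tbc1d31. Il6st had 9 genes with a difference of 0, among them Mcu, Osbpl9 and Fth1.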

How the data were processed

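The authors deposited 1 ATAC-seq peak list per group, as unscored intervals on chromosomes (per the file contents, positions only), and the labels name it for both libraries of the group. How these were combined is not given in the sources used here. The submitters' processing notes name BWA, MACS2 2.0 and STAR 2.5 without roles and list the build mm9. The positions were checked against RefSeq genes of GRCm38.p6: a gene boundary was no more than 1000 bases away for 58.0% to 74.2% of peaks, and for 14.5% to 14.8% once peaks had been moved by 50000 bases, so GRCm38 was used.

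Exact duplicates, 2530 rows in continuous E2 and 115 at 120 h, all on chromosomes 18 and 19, and intervals over 10000 bases were left out. Overlapping rows were merged. Regions were the union of the 6 lists by overlap of 1 base or more. Each went to the protein-coding gene it overlaps, by the nearest boundary, or the nearest within 50000 bases. Exon and intron positions were not analysed here. The receptor genes and the other gene lists were chosen with earlier results of these data known. All 10 receptor genes are named, with up to 4 genes per pathway list by number of regions and then width, and 3 most similar genes. Wilson intervals (95%) cover counting error over regions only. The functions for cleaning, union, class and assignment were tested on simulated data, with 2000 of 2000 presence patterns recovered. Python 3.11.15, numpy 2.4.6, scipy 1.17.1 and matplotlib 3.10.9 were used.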

Additional observations from a re-analysis of the deposited data

Results flagged for a closer look

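Intervals over 10000 bases were used in no comparison. Those that span Csf1r numbered 4 in the list of 24 h withdrawal with add-back, against 2 in continuous E2, 1 each after 40 and 56 h and 0 after 72 and 120 h. They stand here because rows outside the comparisons were more frequent than in continuous E2. Those that span Csf2ra numbered 12 in both of these lists and 2, 1, 1 and 1 in the others.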

How the results depend on the processing

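No paired analysis was possible because the libraries numbered 1 and 2 share a single list in every group, which also means that neither could be omitted in turn. Of 123 values under 13 alternatives, 97 stayed within 1.5 times the reported count or within its interval and 26 did not. Without chromosomes 18 and 19, and likewise with no limit on interval width, which merges Csf1r and Csf2ra into longer intervals, the called regions were 9 in continuous E2, 9 after 24 h and 5 after 56 h, and the kept ones 3. With 50% reciprocal overlap 4 regions were kept and 10 were lost, and 28.6% of the regions of continuous E2 were also called at 120 h. With any region within 50000 bases of a receptor gene counted, there were 32 regions, of which 23 were called in continuous E2, 23 after 24 h, 19 after 40 h and 15 after 56 h, and 14 were lost. With genes of every kind, 12 regions were left, with 9 called in continuous E2, 7 after 40 h, 4 after 56 h, 7 after 72 h and 6 at 120 h, of which 3 were gained and 3 kept, and none belonged to Csf3r. With lists of equal length, 4 regions were lost, of which 2 at Flt3, and the Csf2ra region past the gene end was gained. Without peaks under the lower quartile of width, 5 were called after 56 h and 3 were gained. The assignment and chromosome settings add or remove regions by construction. Lists of equal length, the removal of narrow peaks and reciprocal overlap take away peaks or calls, and lifting the width limit merges regions. Beyond this, the cause was not tested. The depth was unknown, so that no call of absence can be told from a missed peak.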

Other observations

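The repeated rows of the files fell on 2 of the receptor genes. At Csf1r and Csf2ra, each called region had 3 to 8 rows in a list, in 24 of 24 pairs of region and list, whereas the regions of the other receptor genes had 1 row in 47 of 47 pairs. At Csf1r the 4 rows of continuous E2 held 2 different starts and 2 different ends in 3 combinations, and the 5 rows of 24 h held 2 starts and 2 ends in 2 combinations. At the Csf2ra promoter region the 8 rows of continuous E2 held 2 starts and 2 ends in 3 combinations. No source used here says how these rows arose.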
